A study of Zea mays with 6 samples.

Results

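In 299 nuclear genes of maize, the WT and the tls1 library of 1 replicate number lay together, far above or far below the other 4 libraries of the study. These genes were selected on their measured levels. A level is given in CPM, a gene's count scaled to the total counted reads of its library. A gene was taken when its highest level was at least 1 CPM and when both libraries of 1 replicate number lay at least 2 log2 units, which is 4-fold, above or below all of the other 4 libraries on the scale of log2(CPM + 0.1). Of the 43789 nuclear identifiers in the table, 20401 reached 1 CPM in at least 1 library, and the 299 genes were 1.47% of these. Zm00001d045733 met the rule in 2 ways, so the classes below hold 300 entries. Since the levels chose the genes, the differences between replicate numbers are a description and carry no test.

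The libraries came from tassel meristems dissected at 1 mm from greenhouse plants at stage V6-V7, grown under a long-day light regime. The WT group (n = 3 libraries) was the B73 inbred and the tls1 group (n = 3 libraries) was the tassel-less1 mutant, described in the labels as boron deficient and with B73 also given as its cultivar. Both groups received the same fertilizer, which supplied 0.08 ppm boron with 238 ppm nitrogen, and no other treatment. Each genotype has libraries numbered 1, 2 and 3. The WT and tls1 libraries of 1 number are called a pair here. What a number refers to is not in the labels.

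The tassel meristem is the growing tip that builds the male inflorescence of maize, and tassel-less1 is known to encode a boron channel of the aquaporin family. Maize inbred lines are known to differ from each other in gene content as well as in sequence, and neighbouring genes on a chromosome tend to be inherited together. This is background and was not tested here. The files and the reference table give no symbol for any nuclear identifier, with 0 of the 299 genes matched, so the genes are given by identifier, without a role and without a sequence. For the same reason the tissue was not checked against marker genes.

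Depth was alike across the study, from 72498318 to 77619452 counted reads per library. A count of 3, taken as the limit that a count of 0 allows, was worth 0.0387 to 0.0414 CPM, and this covers counting error only. The summed level of mitochondrial genes ran from 1351 CPM in tls1 1 to 3189 CPM in WT 1, and that of plastid genes from 10.8 CPM in tls1 1 to 33.3 CPM in WT 1. Those 2 libraries, at opposite ends of both ranges, form pair 1. The part of these transcripts in the results was not tested.

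Pairs 1 and 3 gave the most genes, and the direction differed between pairs. Pair 1 stood apart in 111 genes, with 95 higher and 16 lower. Pair 2 stood apart in 74 genes, with 11 higher and 63 lower. Pair 3 stood apart in 115 genes, with 52 higher and 63 lower. Leaving out 1 library takes a condition out of the rule, so the class counts mostly rise by construction. Without WT 2 the genes higher in pair 2 numbered 23, and without WT 1 those lower in pair 2 numbered 83. Without tls1 1 the genes lower in pair 1 numbered 25 and those higher in pair 3 numbered 82. Among features outside the nuclear genes, none of the 151 non-coding RNA identifiers, 29 mitochondrial genes and 12 plastid genes that reached 1 CPM met the rule. The share over nuclear genes was 1.47%, and these sets are too small to show a difference from it. No microRNA gene reached 1 CPM.

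**Figure D1:**
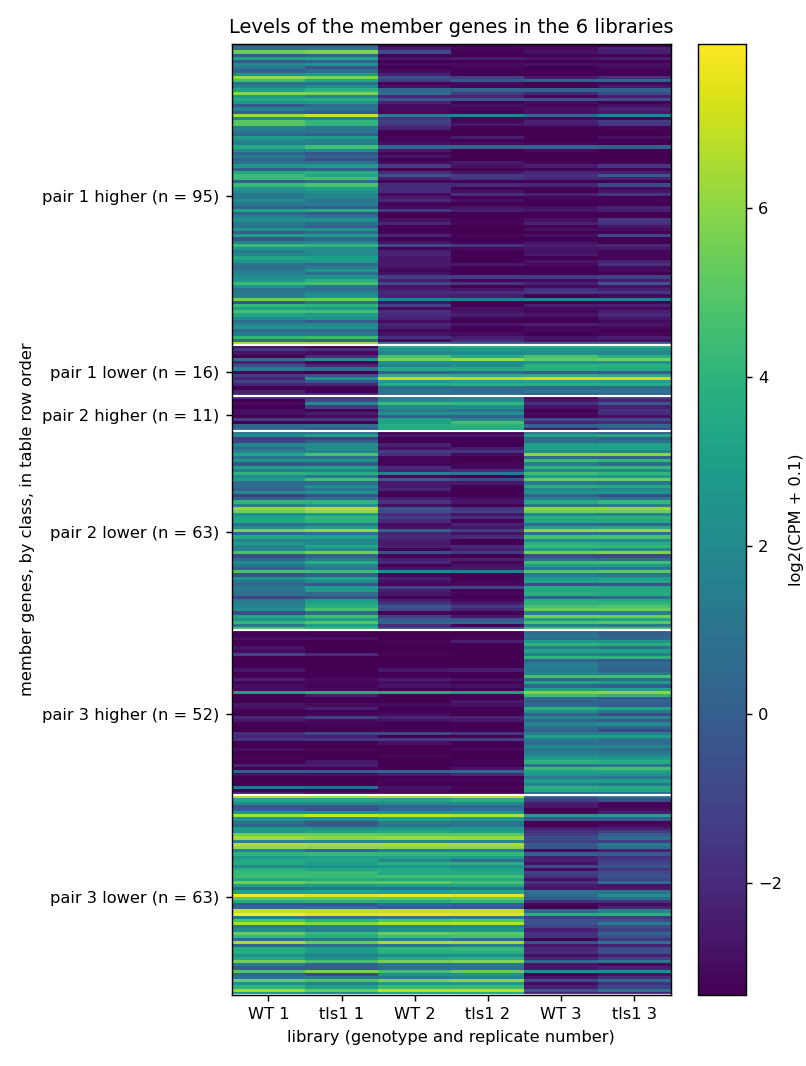
Levels of the 299 genes (300 entries) in the 6 libraries, as log2(CPM + 0.1) in colour, with 1 row per entry, grouped by pair and direction and in table order within a group. The white lines part the 6 classes, and in each class the 2 columns of 1 pair differ from the other 4 columns.

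Most entries went from a measurable level to nearly none. In such bulk samples, fewer cells of a type and less RNA per cell cannot be told apart. In 262 of the 300 entries, every library on the low side was below 1 CPM, and in 33 every low library had a count of 0. In the other 38 entries at least 1 low library still had 1 CPM or more, so "on or off" describes most of the genes but not these. The median gap between the nearest high and the nearest low library ran from 2.92 log2 units in the genes higher in pair 2 to 3.86 in the genes lower in pair 3.

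The 95 genes higher in pair 1 had a median level of 3.74 CPM in the libraries of that pair, and their low libraries had a median of 0.843% of it. Zm00001d045237 had the widest gap, with 25.3 CPM in WT 1, 25.3 in tls1 1, 0.207 in WT 2, 0.0408 in tls1 2, 0.0134 in WT 3 and 0.0937 in tls1 3. Both libraries of pair 1 were high and equal, and all others were far lower. Zm00001d034421 had 74.3 CPM in WT 1, 56.0 in tls1 1, 0.593 in WT 2, 0.340 in tls1 2, 0.0668 in WT 3 and 0.187 in tls1 3. Zm00001d028965 had 42.4 CPM in WT 1, 53.7 in tls1 1, 0.455 in WT 2, 0.0136 in tls1 2, 0.0401 in WT 3 and 0.0937 in tls1 3. In both, WT 2 was the highest of the low libraries. The highest levels of this class were in Zm00001d039859, with 83.0 CPM in WT 1, 142 in tls1 1, 2.55 in WT 2, 3.05 in tls1 2, 1.28 in WT 3 and 3.20 in tls1 3. Zm00001d048244 followed, with 95.5 CPM in WT 1, 91.7 in tls1 1, 2.06 in WT 2, 1.24 in tls1 2, 1.06 in WT 3 and 1.34 in tls1 3. These 2 genes were among the 7 of the class in which a low library kept 1 CPM or more.

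The 52 genes higher in pair 3 came closest to a switch, with all 4 low libraries at a count of 0 in 17 of them. In this class the median low level was 0.146% of the high level, the lowest of the 6 classes. Zm00001d005580 had 0 CPM in WT 1, tls1 1, WT 2 and tls1 2, 23.5 CPM in WT 3 and 23.3 CPM in tls1 3. Against a floor of 3 counts in a library, both libraries of pair 3 were at least 563-fold higher. Zm00001d025532 also had 0 CPM in the 4 libraries of pairs 1 and 2, with 15.5 CPM in WT 3 and 15.2 CPM in tls1 3, which was at least 367-fold higher. Zm00001d033400 had 0 CPM in the same 4 libraries, 15.5 CPM in WT 3 and 13.8 CPM in tls1 3, at least 332-fold higher. The gene of this class with the highest level was not a switch. Zm00001d042926 had 7.73 CPM in WT 1, 12.3 in tls1 1, 11.7 in WT 2, 8.07 in tls1 2, 54.1 in WT 3 and 64.1 in tls1 3, so it was well measured in every library.

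Only 11 genes were higher in pair 2, and their median gap was the smallest of the 6 classes. Zm00001d022147 led them, with 0 CPM in WT 1 and tls1 1, 8.72 in WT 2, 24.6 in tls1 2, 0.107 in WT 3 and 0.161 in tls1 3. Its tls1 2 level was well above its WT 2 level. Zm00001d012859 had 0.0387 CPM in WT 1, 0.0806 in tls1 1, 5.21 in WT 2, 4.87 in tls1 2, 0.0267 in WT 3 and 0.174 in tls1 3. Zm00001d012687 kept a measurable level throughout, with 1.26 CPM in WT 1, 1.52 in tls1 1, 12.6 in WT 2, 15.0 in tls1 2, 1.08 in WT 3 and 1.31 in tls1 3.

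The 63 genes lower in pair 3 were the most abundant where they were on, with a median of 10.5 CPM in the high libraries. Zm00001d036420 had 83.3 CPM in WT 1, 64.8 in tls1 1, 74.4 in WT 2, 73.9 in tls1 2, 0.561 in WT 3 and 1.46 in tls1 3. Its 4 high libraries lay close together, and of the pair 3 libraries tls1 3 kept more than WT 3. Zm00001d011075 showed the same order at a higher level, with 218 CPM in WT 1, 171 in tls1 1, 214 in WT 2, 192 in tls1 2, 1.39 in WT 3 and 5.06 in tls1 3. Zm00001d011604 fell short of being off, with 246 CPM in WT 1, 174 in tls1 1, 193 in WT 2, 177 in tls1 2, 13.4 in WT 3 and 14.2 in tls1 3. In 18 of the 63 genes at least 1 library of pair 3 kept 1 CPM or more.

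Of the 63 genes lower in pair 2, 59 were below 1 CPM in both libraries of that pair, and the median level in their high libraries was 7.21 CPM. Zm00001d053092 had 71.5 CPM in WT 1, 104 in tls1 1, 0.648 in WT 2, 0.231 in tls1 2, 63.7 in WT 3 and 70.4 in tls1 3. Zm00001d053283 had 46.6 CPM in WT 1, 64.9 in tls1 1, 0.552 in WT 2, 0.367 in tls1 2, 44.1 in WT 3 and 43.4 in tls1 3. In both genes tls1 1 was the highest of the 4 high libraries, at 155% and 148% of the pair 3 mean, and the others lay close together. Zm00001d001841 differed from them, with 5.68 CPM in WT 1, 5.58 in tls1 1, 0.0138 in WT 2, 0 in tls1 2, 21.3 in WT 3 and 17.0 in tls1 3, so that pair 1 lay between the other pairs.

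The 16 genes lower in pair 1 were led by Zm00001d024475, with 0.0258 CPM in WT 1, 0 in tls1 1, 10.2 in WT 2, 12.2 in tls1 2, 11.0 in WT 3 and 11.8 in tls1 3. Zm00001d008303 had the highest level of the class, with 0.129 CPM in WT 1, 5.05 in tls1 1, 110.4 in WT 2, 101 in tls1 2, 133 in WT 3 and 119 in tls1 3. Its tls1 1 library kept a measurable level where WT 1 had close to none. Zm00001d043740 had 0 CPM in WT 1, 0.175 in tls1 1, 25.1 in WT 2, 12.3 in tls1 2, 26.0 in WT 3 and 14.0 in tls1 3. In it the WT library was higher than the tls1 library in both high pairs.

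Zm00001d045733 had 3 levels rather than 2. It had 1.78 CPM in WT 1, 1.48 in tls1 1, 0.0552 in WT 2, 0.0136 in tls1 2, 13.6 in WT 3 and 12.4 in tls1 3, so it counted both as lower in pair 2 and as higher in pair 3.

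The rule cut a continuous range. For genes lower in pair 3, Zm00001d010210 lay just inside with a gap of 2.078 and Zm00001d010321 just outside with a gap of 1.999. For genes lower in pair 2, Zm00001d046706 lay just inside at 2.019 and Zm00001d035463 just outside at 1.988. For genes higher in pair 1, Zm00001d014444 at 2.219 and Zm00001d049629 at 1.966 lay on either side, and for genes higher in pair 3, Zm00001d001485 at 2.091 and Zm00001d010792 at 1.954. For genes lower in pair 1 the corresponding genes were Zm00001d011795 at 2.042 and Zm00001d048288 at 1.578, and they were Zm00001d007605 at 2.123 and Zm00001d047165 at 1.943 for genes higher in pair 2.

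Within the pair that stood apart, WT and tls1 were mostly of similar level. They differed by less than 1 log2 unit in 243 of the 300 entries (81.0%), in 143 of 158 where the pair was higher (90.5%) and in 100 of 142 where it was lower (70.4%). Over all 20401 nuclear genes that reached 1 CPM, the share was 89.3% in pair 1, 96.8% in pair 2 and 96.2% in pair 3. The share among the lower entries was below each of these. It was made up of 11 of 16 genes in pair 1, 50 of 63 in pair 2 and 39 of 63 in pair 3.

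**Figure D2:**
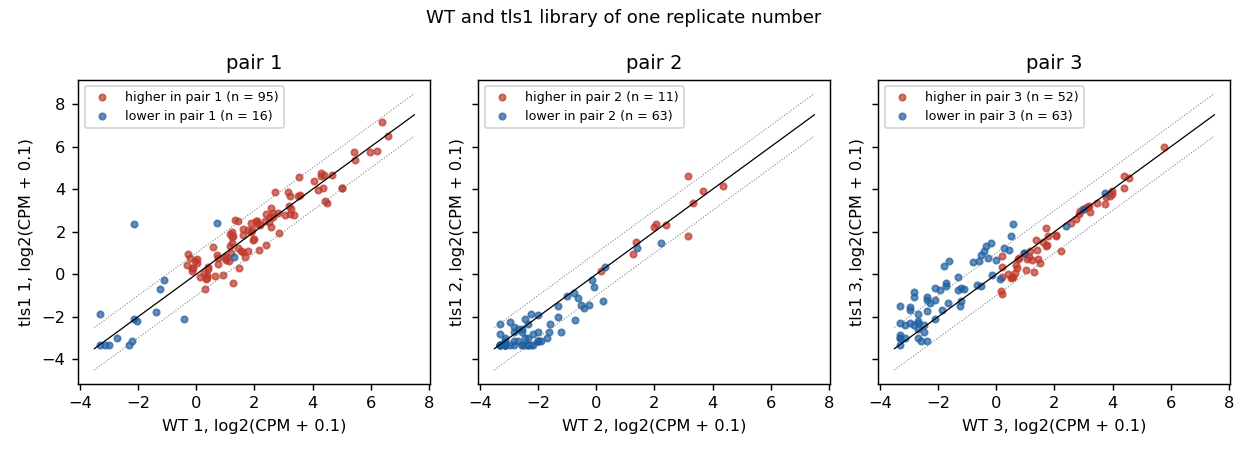
Level in the tls1 library against the level in the WT library of the same number, both as log2(CPM + 0.1), for the entries that stood apart in pair 1, 2 or 3, with higher entries in red and lower ones in blue, the line of equality solid and differences of 1 log2 unit dotted. The WT and tls1 levels differed by less than 1 log2 unit in 243 of the 300 entries, and the lower entries of pair 3 lie mostly above the line.

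The low levels that remained were not equal between the libraries of a pair. Of the 63 genes lower in pair 3, tls1 3 was above WT 3 in 53 and below it in 9, and the levels summed to 46.5 CPM for WT 3 and to 72.5 CPM for tls1 3. Of the 63 genes lower in pair 2 the order was the other way, with WT 2 above tls1 2 in 47 and below it in 11, and summed levels of 19.2 CPM in WT 2 and 11.9 CPM in tls1 2. In this class 21 levels in WT 2 and 33 in tls1 2 were at or below a count of 3, which cannot be told from 0. The order in pair 2 is therefore uncertain in many of these genes. In the genes lower in pair 3, 14 levels in WT 3 and 8 in tls1 3 were that low. Over all nuclear genes that reached 1 CPM, tls1 was above WT in 52.6% of genes in pair 1, 52.8% in pair 2 and 48.8% in pair 3. Genes with a mean of at least 10 CPM in their high libraries, a limit chosen after the values were seen, allow the remaining level to be given as a share. In the 32 such genes lower in pair 3, the median was 1.03% of the high mean in WT 3 (range 0.235% to 14.4%) and 3.09% in tls1 3 (range 1.54% to 13.3%), and tls1 3 was above WT 3 in 29. In the 22 such genes lower in pair 2, the median was 1.38% in WT 2 and 0.688% in tls1 2, and WT 2 was above in 19. Some tls1 2 levels among these 22 genes were still at or below a count of 3, as in Zm00001d001841 with a count of 0.

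The same order of libraries was seen in the genes higher in pair 1, in which pairs 2 and 3 are low. There WT 2 was above tls1 2 in 68 of the 95 genes and below it in 16, and tls1 3 was above WT 3 in 58 and below it in 18. Many of these levels were at or below a count of 3: 39 in WT 2, 63 in tls1 2, 63 in WT 3 and 49 in tls1 3. Such levels cannot be told from 0, so the order in this class is uncertain. In the genes higher in pair 3, where pairs 1 and 2 are low, both libraries were at 0 in 23 of the 52 genes in pair 1 and in 26 in pair 2. In the remaining ones neither library led, with tls1 2 above WT 2 in 12 genes and below it in 14. Where pair 3 itself was high, in these 52 genes, its order was reversed, with tls1 3 above WT 3 in 11 and below it in 41. All these counts describe genes within single libraries, with no replicate of the pair behind them, and genes of 1 library are not independent of each other.

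**Figure D3:**
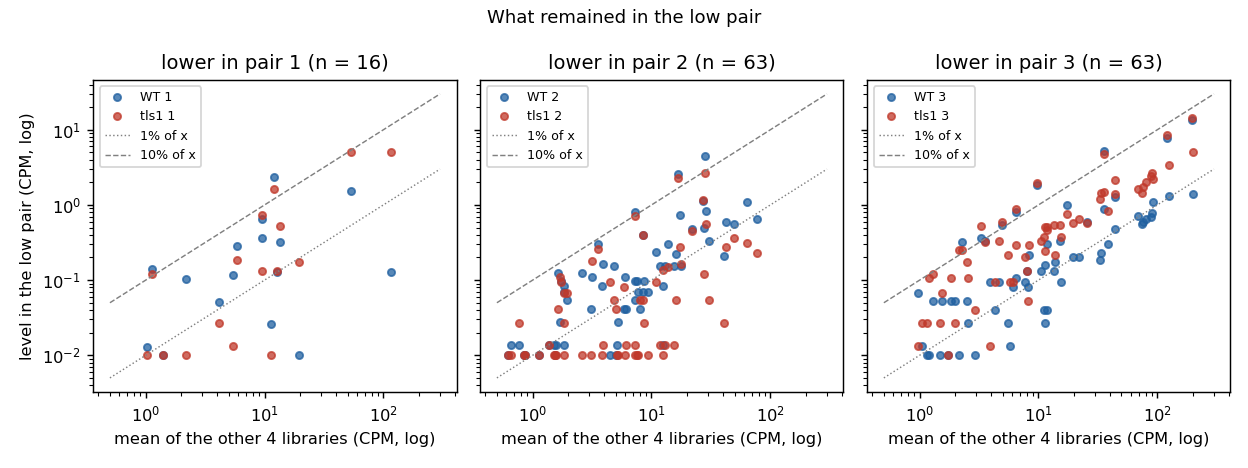
Level in the WT (blue) and the tls1 (red) library of the low pair against the mean of the other 4 libraries, both in CPM on log axes, with 1 panel for the 16, 63 and 63 genes lower in pair 1, 2 and 3, dotted lines at 1% and dashed lines at 10% of the horizontal value, and levels below 0.01 CPM, zeros included, drawn at 0.01. In pair 3 the tls1 level was above the WT level in 53 of 63 genes, and in pair 2 the WT level was above in 47 of 63. In pair 2, 21 WT levels and 33 tls1 levels of these genes were at or below a count of 3, which cannot be told from 0.

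The pair 1 libraries took intermediate levels in many of the genes lower in pair 2. In the genes lower in pair 3 they lay nearer to pair 2, with medians of 85.8% of its mean in WT 1 and 81.2% in tls1 1. In the 63 genes lower in pair 2, the level in percent of the mean of pair 3 had a median of 50.5% in WT 1 and 68.1% in tls1 1, and tls1 1 was above WT 1 in 50 genes. In some of them pair 1 was not intermediate: the upper quartile was 75.9% in WT 1 and 103% in tls1 1, and the highest values were 211% and 330.2%. The full order of WT 1 below tls1 1 below both libraries of pair 3 was found in 33 of the 63 genes (52.4%), against 6.64% of all nuclear genes that reached 1 CPM. The rule used these same levels and favours genes with wide differences between libraries, so the comparison with all genes is a description only. In 17 of the 63 genes WT 1 was below 25% of pair 3, a limit chosen after the values were seen. The median of these 17 was 17.8% in WT 1 (range 11.8% to 24.3%) and 55.1% in tls1 1. In 16 of them tls1 1 lay between 30.4% and 68.1%, and the exception was Zm00001d045733. The rows of these 17 genes ran from 3574 to 42547 of the 43789 nuclear rows, with 6 of them in the second of the stretches described below.

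Zm00001d046912, picked as an example after its values were seen, had 4.69 CPM in WT 1, 26.4 in tls1 1, 0.497 in WT 2, 0.122 in tls1 2, 39.5 in WT 3 and 39.8 in tls1 3. The neighbours Zm00001d045962 and Zm00001d045963 showed the same order. Zm00001d045962 had 2.25 CPM in WT 1, 7.25 in tls1 1, 0.0966 in WT 2, 0.0272 in tls1 2, 14.0 in WT 3 and 11.3 in tls1 3. Zm00001d045963 had 2.63 CPM in WT 1, 9.48 in tls1 1, 0.234 in WT 2, 0.0953 in tls1 2, 14.9 in WT 3 and 17.1 in tls1 3. The pair 1 libraries thus differed from each other in these genes, while the libraries of pair 3 were alike.

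Row order was not used to choose the genes, and members of a class lay near each other in it. The identifier number rose from 1 nuclear row to the next in 94.9% of the 43788 steps. The microRNA genes of the table give a check on what the order follows: 153 of them have a place in the assembly Zm-B73-REFERENCE-NAM-5.0, and in all 142 cases where consecutive ones were on the same chromosome there, the later row also had the later position. Whether the counted build has the same order throughout is not stated in the sources, so rows are used below and no coordinates.

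Another member of the same pair lay within 50 rows of 47 of the 111 genes of pair 1 (42.3%), of 14 of the 74 of pair 2 (18.9%) and of 59 of the 115 of pair 3 (51.3%). Among the other nuclear genes that reached 1 CPM, 18.8% lay within 50 rows of a member of pair 1, 15.1% of a member of pair 2 and 17.2% of a member of pair 3. The share in pair 2 was close to the background at 50 rows, but within 10 rows it was 8.11% against 3.38% and within 200 rows 55.4% against 46.4%. By class, the share within 50 rows was highest in the genes lower in pair 3, at 45 of 63 (71.4%). It was 8 of 16 (50.0%) in the genes lower and 39 of 95 (41.1%) in the genes higher in pair 1. It was 14 of 52 (26.9%) in the genes higher in pair 3 and 14 of 63 (22.2%) in those lower in pair 2. None of the 11 genes higher in pair 2 had a near member. The near member could be of either direction. In 10 cases members of 1 pair held adjacent rows, 5 in pair 1, 2 in pair 2 and 3 in pair 3, and in all 10 both genes had the same direction.

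The longest run with at most 20 rows between neighbours held 5 genes, all lower in pair 3: Zm00001d011577, Zm00001d011598, Zm00001d011601, Zm00001d011604 and Zm00001d008121. Their levels differed widely. Zm00001d011601 had 129 CPM in WT 1, 119 in tls1 1, 124 in WT 2, 132 in tls1 2, 1.31 in WT 3 and 3.35 in tls1 3. Zm00001d011577 had 0.915 CPM in WT 1, 0.671 in tls1 1, 1.57 in WT 2, 0.994 in tls1 2, 0.0134 in WT 3 and 0.0268 in tls1 3. The longest run of pair 1 held 4 genes, all higher: Zm00001d052648, Zm00001d052656, Zm00001d052657 and Zm00001d052675. Zm00001d052656 had 19.5 CPM in WT 1, 24.6 in tls1 1, 0.0828 in WT 2, 0.231 in tls1 2, 0.147 in WT 3 and 0.107 in tls1 3. Its neighbour Zm00001d052657 was weaker and had a smaller gap, with 0.876 CPM in WT 1, 1.44 in tls1 1 and 0 in the other 4 libraries. Pair 2 had 4 runs, of 2 genes each.

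**Figure D4:**
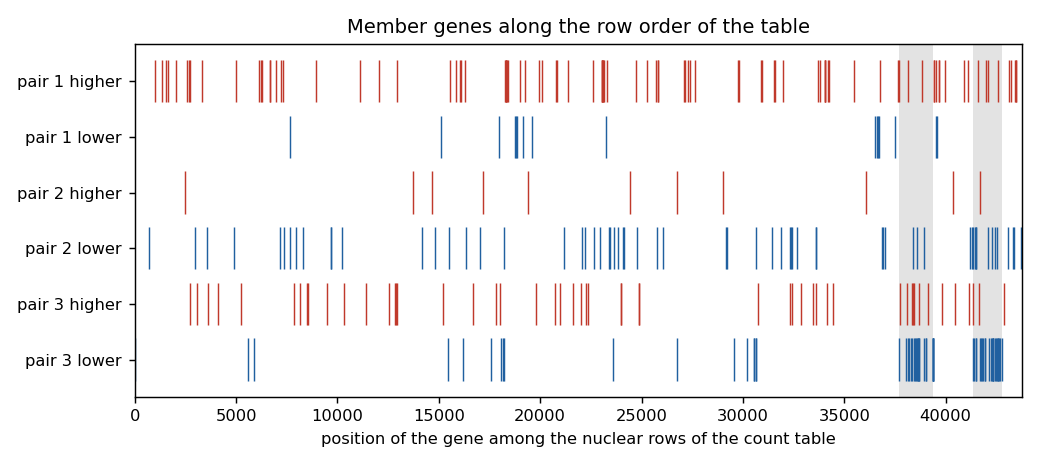
Position of each member among the 43789 nuclear rows (horizontal axis), with 1 line of marks for each pair and direction and the long stretches of the genes lower in pair 3 shaded. Of the 63 genes lower in pair 3, 22 and 24 lie in the shaded stretches, and the other classes are spread more widely.

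Of the genes lower in pair 3, 46 of 63 lay in 2 long stretches. A stretch was a set of at least 10 members of a class with at most 400 rows between neighbours. This definition was set after the positions were seen, and a limit of 300 rows was tried first. The first stretch ran from Zm00001d009588 to Zm00001d008121, over 1699 rows between the microRNA genes zma-MIR408b and zma-MIR396b, and held 22 members, 34.9% of the class in 3.88% of the nuclear rows. With the limit of 300 rows it ran from Zm00001d010040 to Zm00001d011165 and held 16 members. The second stretch ran from Zm00001d045760 to Zm00001d047467, over 1406 rows between zma-MIR399j and zma-MIR528b, and held 24 members, 38.1% of the class in 3.21% of the rows. It was the same with limits of 200, 300 and 600 rows. No other class had a stretch at 200, 300 or 400 rows. The classes higher in pair 2 and lower in pair 1 held only 11 and 16 genes, so they could hardly form a stretch of 10. At 600 rows the genes higher in pair 1 had a stretch of 11 members, and the genes lower in pair 2 had stretches of 10 and 14 members. That of 14 ran from Zm00001d045581 to Zm00001d048487 and spans the second stretch. Its medians, in percent of the pair 3 mean, were 19.8% in WT 1 and 60.3% in tls1 1. In that of 10, from Zm00001d051508 to Zm00001d053853, they were 102% in WT 1 and 131% in tls1 1, so pair 1 was not intermediate there.

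The stretches were not silent in pair 3. The first held 814 genes that reached 1 CPM, of which the 22 members were 2.70%, and the second held 527, of which the 24 members were 4.55%. Among the 780 and 490 genes there that were in none of the 6 classes, pair 3 lay at least 0.5 log2 units below the mean of the other 4 libraries in 14.9% of the first stretch and 20.6% of the second, against 8.19% of all 20102 such genes that reached 1 CPM. It lay at least 0.5 log2 units above that mean in 5.77% and 8.37%, against 3.01%. Moderate differences of pair 3 were thus more frequent in the stretches in both directions, which is a description of stretches chosen for their members.

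The second stretch also separated the pair 1 libraries. In its 24 genes lower in pair 3, tls1 1 had a median of 49.8% of the pair 2 mean (quartiles 41.7% and 59.1%) and WT 1 had 79.9% (quartiles 66.0% and 91.3%). In the 22 genes of the first stretch the medians were 97.9% in tls1 1 and 97.7% in WT 1, and in the 17 genes outside both they were 93.8% and 85.8%. In the second stretch tls1 1 was the lowest of the 4 high libraries in 19 of 24 genes (79.2%), against 9 of 22 in the first (40.9%) and 27.3% of all nuclear genes that reached 1 CPM. The rule used these levels to choose the members, so the comparison with all genes is a description only. Zm00001d046381, picked after its values were seen, had 90.4 CPM in WT 1, 38.4 in tls1 1, 90.1 in WT 2, 85.6 in tls1 2, 0.588 in WT 3 and 1.75 in tls1 3. Zm00001d047367, picked in the same way, had 81.2 CPM in WT 1, 37.8 in tls1 1, 102 in WT 2, 103 in tls1 2, 0.642 in WT 3 and 2.01 in tls1 3.

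Genes lower in pair 2 in the second stretch showed the complementary levels. In these 7 genes tls1 1 had a median of 55.1% of the pair 3 mean (range 46.2% to 66.7%) and WT 1 had 17.8% (range 11.8% to 29.9%). In this stretch the tls1 1 library thus lay near the middle in both classes, between pair 2 and pair 3, and WT 1 lay nearer to pair 2 in both, by these medians.

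**Figure D5:**
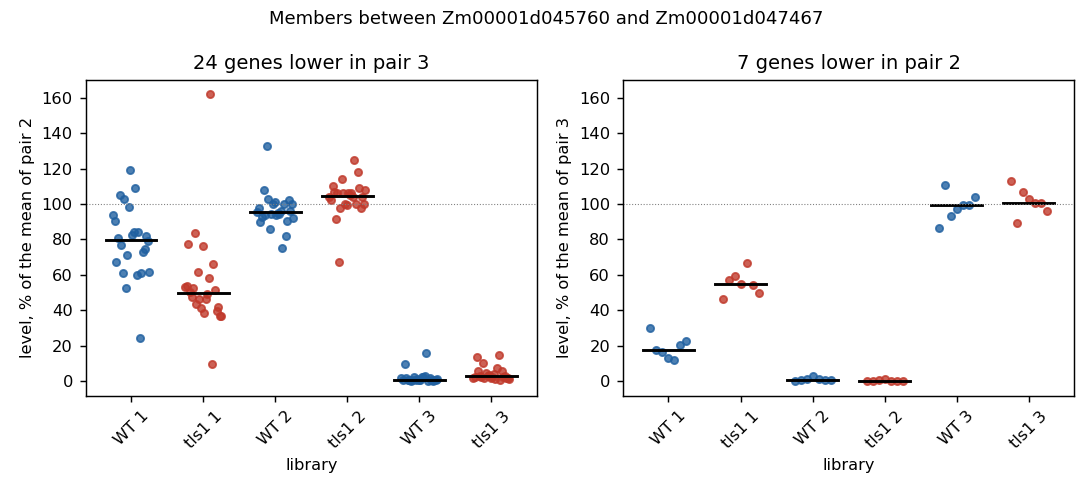
Level in each library, in percent of the mean of the reference pair, for members in the second stretch, with 1 point per gene, a bar at the median, WT in blue and tls1 in red. The 24 genes lower in pair 3 are drawn against pair 2 and the 7 genes lower in pair 2 against pair 3, and tls1 1 has a median of 49.8% in the first set and 55.1% in the second.

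The study compared tls1 with WT at this stage, and in that comparison none of these genes was called, with or without the replicate block. Of the 299 genes, 197 passed the edgeR filter on low counts: 38 of 95 higher and 16 of 16 lower in pair 1, 10 of 11 higher and 63 of 63 lower in pair 2, and 8 of 52 higher and 63 of 63 lower in pair 3. A gene seen in only 2 libraries mostly did not pass, so the tested genes are mainly those that were low in 1 pair. With genotype as the only factor, edgeR called 0 of the 197 at an adjusted p under 0.05, and 0 had an unadjusted p under 0.05. Over all 23349 tested genes it called 1 (0.00428%), and 16.5% had an unadjusted p under 0.05. The 197 genes had a median log2 fold change, tls1 over WT, of 0.05, against 0.01 over all tested genes, and a median SE of 1.57 against 0.14. The rule fixes this in part, since both libraries of a pair, 1 from each genotype, lie on the same side.

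With the replicate number as a block, which takes up the difference between pairs, edgeR called 162 of the 23349 tested genes (0.694%) and still 0 of the 197. The median SE of the 197 fell to 0.38, against 0.11 over all tested genes, and 10 of the 197 (5.08%) had an unadjusted p under 0.05, against 19.8% of all tested genes. The lowest p among them belonged to Zm00001d039859, whose levels in pair 1 are given above, which was higher in tls1 by 0.74 ± 0.18 log2 units (± SE; adjusted p = 0.130, blocked edgeR fit), and to Zm00001d022147, higher by 1.26 ± 0.30 (adjusted p = 0.142, blocked edgeR fit). Among genes lower in tls1, Zm00001d007775 had a difference of -0.27 ± 0.11 (adjusted p = 0.244, blocked edgeR fit) and Zm00001d011781 one of -0.26 ± 0.10 (adjusted p = 0.246, same fit). DESeq2 called 0 of the 160 members to which it gave an adjusted p, against 4.84% of all genes. The rule fixes these low shares in part too, since it chose genes that differ widely between pairs. No conclusion about genotype is drawn from shares below the background.

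When pair 1 was left out of the blocked fit, an alternative added after the data were seen, edgeR called 3 of the 227 members tested (1.32%), against 1.84% of all genes tested in that fit, so the members' share was no higher than the background. Zm00001d043740 was lower in tls1 with a log2 fold change of -0.96 (edgeR adjusted p = 0.0125), and its WT library was about as far above the tls1 library in pair 2 as in pair 3. Zm00001d043795 was higher with 0.51 (edgeR adjusted p = 0.0370); it had 1.53 CPM in WT 1, 5.14 in tls1 1, 51.4 in WT 2, 78.5 in tls1 2, 35.4 in WT 3 and 47.3 in tls1 3. Zm00001d022147 was higher with 1.36 (edgeR adjusted p = 0.0418). Zm00001d043740 and Zm00001d043795 were members only as genes lower in pair 1, the pair that this fit left out. With pair 2 or pair 3 left out instead, edgeR called 0 members.

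In genes that were not members, the deviations of the WT and tls1 libraries of a number were also positively correlated. Across the 23152 tested genes that were not members, the deviations of the WT and the tls1 library of a pair from their genotype means had a Pearson correlation of 0.131 in pair 1, 0.353 in pair 2 and 0.525 in pair 3. With the members included, over 23349 genes, the values were 0.402, 0.584 and 0.668. Removing genes chosen for agreement within pairs lowers such a value by construction, and the fall was largest in pair 1. These are correlations across genes, which are not independent replicates, and they are given without a test. Correlations between libraries of different numbers were not computed. Without them for comparison, these values do not show whether the numbers pair the libraries in these genes.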

How the data were processed

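Poly-A RNA of 1 mm tassel meristems was sequenced in 3 WT and 3 tls1 libraries. The authors deposited 1 table of raw read counts per feature, not normalized. Per the submitters' processing notes, cutadapt and STAR were used. Tool versions, genome build, counting program and strand setting: not given in the sources used here. Near-identical, overlapping and antisense genes are therefore uncertain. Since no label ties a library to its own plant, p-values cover only the variation among these 6 libraries, and that variation may be technical.

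Levels are CPM over all counted reads of a library, with a pseudocount of 0.1 on the log2 scale, computed with Python 3.11.15. The genotype test was edgeR 4.0.16 under R 4.3.3 (quasi-likelihood F test, TMM, filterByExpr, genotype only, Benjamini-Hochberg over all tested genes, called at an adjusted p under 0.05). The SE is the size of the log2 fold change divided by the square root of F. Alternatives were the replicate number as a block, other size factors, other filters, DESeq2 1.42.0 and leaving out libraries. The replicate numbers were taken to pair the libraries because same-number deviations correlated above 0.1 in all 3 pairs (lowest 0.131, in genes that were not members). Correlations between libraries of different numbers were not computed for comparison, so these values alone do not show a pairing. The labels do not state a pairing.

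The fits were checked on simulated counts with known changes. The fit without the block recovered fewer of the changed genes than the level first required of it, and that requirement was lowered rather than the fit changed.

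The rule for the members, and the lists described, were chosen with earlier results of these data known. Named genes are those with the widest gaps and highest levels in a class, those next to the limit, the longest runs and the lowest genotype p; Zm00001d046912, Zm00001d046381, Zm00001d047367, Zm00001d045733, Zm00001d045962 and Zm00001d045963 were added after their values were seen where that rule did not give them. The comparisons of relative, remaining and intermediate levels, and the stretches with their limits, were also made after the values were seen.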

Additional observations from a re-analysis of the deposited data

How the results depend on the processing

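The number of genes that met the rule was 299, and it fell to 189 with a pseudocount of 0.5 and to 167 when the highest level had to reach 5 CPM. It rose to 475 with a gap of 1. A pseudocount of 0.01, a gap of 3, a minimum of 0.5 CPM and TMM-adjusted library sizes gave 346, 209, 339 and 301, and leaving out 1 library gave 304 to 339. Of the 300 entries, 120 lay near another member of their pair within 50 rows, 48 within 10 rows and 206 within 200 rows. The genes lower in pair 3 inside long stretches numbered 46, and 37, 40 and 46 with limits of 200, 300 and 600 rows, which were added after the data were seen.

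Over all genes, edgeR without the block called 1 gene for genotype. It called 162 with the replicate block, 13 with no filter and 0 to 9 when 1 library was left out, and DESeq2 called 1183. In fits added after the data were seen, the replicate block gave 475 with no filter and 433, 159 and 52 without pair 1, pair 2 and pair 3. Among the members the count was 0 in each of these fits, the ones that left out 1 library included, except for the 3 called with the replicate block without pair 1. The cause was not tested. With no filter and the block, all 299 members were tested and the lowest edgeR adjusted p was 0.0938. The counts limit what can be said of the low side: many low libraries lie at or under 3 counts, where a level cannot be told from 0.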
